A study of Mus musculus with 15 samples.

Results

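Imprinted genes were described in the olfactory bulbs of mice with lost or constitutively active receptor CRHR1. The members were 38 named imprinted mouse genes, and each was taken from the array probes that carry its name, with the brightest probe that passed the detection filter standing for the gene. Probes were found for 37 of the 38 among 34964 gene names on the array. Rian, a non-coding RNA of the chromosome 12 cluster, is named only. The filter left 33 members, read by 59 of their 70 probes, among 23430 genes tested.

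Total RNA of whole olfactory bulbs was measured on 15 single-colour Agilent arrays, 1 for each male mouse, with 5 mice in each of 3 groups. The knockout mice lacked CRHR1 in the whole body (CRHR1-/-, strain 129S4/SvJae) and received a control adeno-associated virus with a Cre-dependent GFP. The active CRHR1 mice carried CRHR1-Cre on the strain C57Bl/6 and received a virus with a Cre-dependent constitutively active CRHR1, which the labels place in CRHR1-positive granule cells. The Cre GFP mice carried CRHR1-Cre on C57Bl/6 with the same GFP virus as the knockout mice, and the submitters treated them as a stand-in for normal signalling. All mice were 6 to 8 weeks old, received 500 nL of virus and were killed 2 weeks after injection. The labels name no Cre for the knockout mice, so strain, Cre and expression of the viral GFP cannot be told apart from loss of the receptor in any knockout comparison. No uninjected mice were analysed here.

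Imprinted genes are transcribed mainly from the copy inherited from 1 parent, and most lie in clusters where a stretch of DNA methylated in only the egg or the sperm sets the active copy of several genes together. In the cluster that runs from Dlk1 to Dio3, the protein-coding genes Dlk1, Rtl1 and Dio3 are read from the paternal copy, and Meg3, Rian and Mirg, parts of long non-coding transcription that also hosts microRNAs and small nucleolar RNAs, from the maternal copy. Many imprinted genes act on growth, metabolism and neural stem cells. CRHR1, the receptor for corticotropin-releasing hormone, acts mainly through the stimulatory G protein and cyclic AMP, whose responsive factors bind the element TGACGTCA or its core TGACG.

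The 75th percentile of spot intensity, which set the scale of each array, ranged from 664 to 1171. Between 59.9% and 67.8% of probes were well above background on an array, and an array's mean correlation with the others of its group was 0.986 to 0.994. Knockout array 5 had the lowest value of each of these measures. A level below is the log2 intensity minus the array's own 75th percentile, so 0 is the brightness of a probe at that percentile. Levels of different probes cannot be set against each other. The probe of the targeted gene, Crhr1, averaged 3.16 ± 0.12 in knockout bulbs, 3.72 ± 0.12 in active CRHR1 bulbs and 3.63 ± 0.18 in Cre GFP bulbs (SD, n = 5 each). Crhr1 fell by 0.47 ± 0.09 in knockout bulbs (SE; adjusted p = 0.0114, limma), and the difference of active CRHR1 from Cre GFP bulbs was 0.09 ± 0.09 (adjusted p = 0.53). The place of the probe relative to the deleted part is not given in the sources used here. All 8 granule cell markers were detected. The 5 knockout arrays shared slide 1 with Cre GFP arrays 1 to 3, and the 5 active CRHR1 arrays shared slide 2 with Cre GFP arrays 4 and 5.

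The promoters of Dlk1, Meg3 and Dio3 are shown because these genes of 1 cluster differed in how they changed, and because 2 of the promoters hold the letters TGACG. Each is the run of 250 bases that ends just before the gene's RefSeq start in the mouse build GRCm38.p6, on the + strand, with TGACGTCA or TGACG (or its reverse complement CGTCA) in capitals.
Dlk1, chr12:109452573-109452822: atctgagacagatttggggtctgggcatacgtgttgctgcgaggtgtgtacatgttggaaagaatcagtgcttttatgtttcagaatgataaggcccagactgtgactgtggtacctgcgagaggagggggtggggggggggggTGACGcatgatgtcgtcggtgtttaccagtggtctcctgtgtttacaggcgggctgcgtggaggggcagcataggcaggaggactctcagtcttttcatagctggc
Meg3, chr12:109540746-109540995: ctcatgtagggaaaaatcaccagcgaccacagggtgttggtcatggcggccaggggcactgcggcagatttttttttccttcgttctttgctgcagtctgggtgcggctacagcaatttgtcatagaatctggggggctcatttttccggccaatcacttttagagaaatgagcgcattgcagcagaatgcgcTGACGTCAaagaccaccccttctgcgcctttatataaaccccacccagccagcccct
Dio3, chr12:110278980-110279229: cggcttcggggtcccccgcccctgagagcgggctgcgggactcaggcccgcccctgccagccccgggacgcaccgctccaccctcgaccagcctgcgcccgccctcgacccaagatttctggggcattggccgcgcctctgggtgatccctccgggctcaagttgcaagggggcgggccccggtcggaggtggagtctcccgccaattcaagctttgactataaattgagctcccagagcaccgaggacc
The windows held 8, 10 and 21 CpG pairs for Dlk1, Meg3 and Dio3, against a median of 6 over 32851 promoter windows of this length. Meg3 held the whole element TGACGTCA, which 508 windows (1.55%) also held. Dlk1 held the core alone, 106 bases before the start, and 5836 windows (17.8%) held that core on either strand, counting those with the whole element. These letters were not in the Dio3 window. Of 42 windows that belong to 31 members, 3 held the whole element (1 each of Meg3, Peg3 and Zdbf2) and 9 held the core. A match describes the sequence only.

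Against the Cre GFP bulbs, 4 of the 33 members tested passed the threshold in knockout bulbs (limma, Benjamini-Hochberg adjusted p under 0.05 over all genes). This was 12.1% of the members, where 4.09% of all 23430 genes passed. The members were chosen with the fall of Dlk1 known, so the share of members is not an independent result. Plagl1 and Dlk1 fell and Cdkn1c and Dcn rose, against 1.69% of all genes lower and 2.4% higher. Arrays of the 2 groups did not overlap for these 4 members, and did not overlap for 5.91% of all genes. The median change of the 33 was -0.08 on the log2 scale, beside 0.01 over all genes. Centring each array on its median, in place of its 75th percentile, left Plagl1 and Dlk1 as the 2 calls and none higher, and a fit with slide as a fixed block left the same 2. With slide as a random block all 4 calls were kept.

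In active CRHR1 bulbs 7 of the 33 members passed against Cre GFP bulbs (21.2%), beside 10.8% of all genes. Dlk1, Dio3, Ndn, Snrpn and Usp29 fell and Asb4 and Tspan32 rose, beside 6.24% of all genes lower and 4.54% higher. The groups did not overlap for 6 members (18.2%), beside 11.4% of all genes. The median change of the members was -0.11, beside -0.08 over all genes. With slide as a fixed block 4 members passed, all of them lower (Dlk1, Dio3, Ndn and Usp29), and with slide as a random block 8 passed. With median centring 4 passed, of which Dlk1, Dio3 and Ndn were lower and Tspan32 was higher.

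Active CRHR1 bulbs were also set against knockout bulbs, a comparison that reuses the arrays of both others. Here 14 of the 33 members passed (42.4%), 7 higher and 7 lower, beside 28.1% of all genes, 9.69% higher and 18.4% lower. The groups did not overlap for 8 members (24.2%), beside 19.5% of all genes. No slide held both groups. With slide as a fixed block, which joins them through the Cre GFP arrays, 3 members passed (Dlk1, Mest and Dcn), and with slide as a random block 18 passed. Quantile normalisation turned the split to 8 higher and 6 lower, and median centring to 5 higher and 3 lower.

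**Figure D1:**
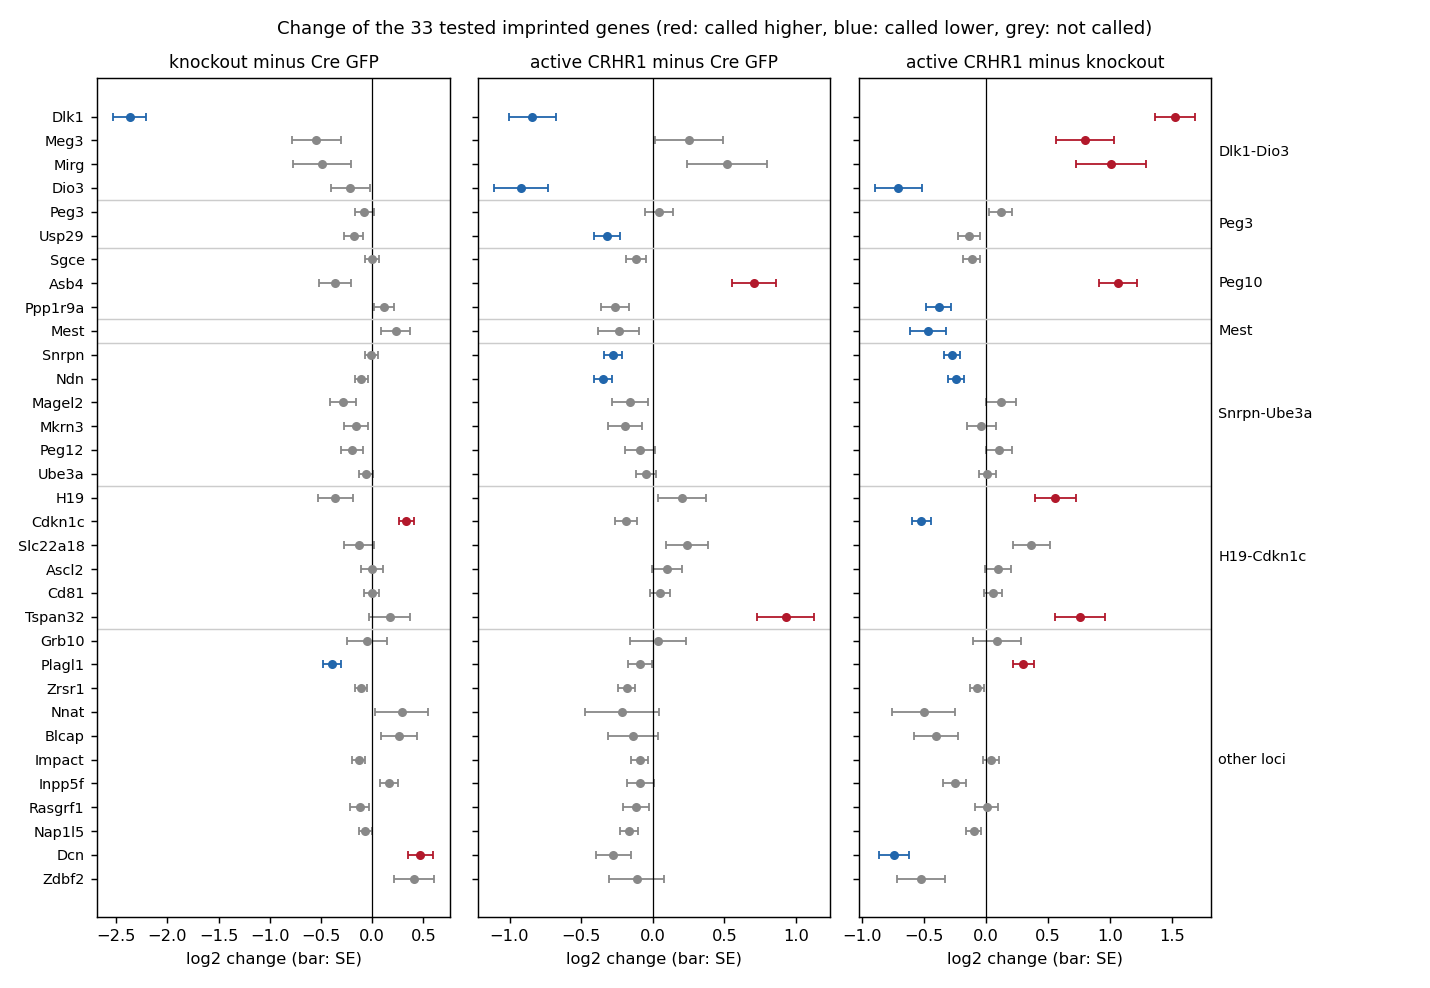
Change of each of the 33 members tested, as the log2 difference in level with a bar of 1 SE, for knockout minus Cre GFP, active CRHR1 minus Cre GFP and active CRHR1 minus knockout, grouped by locus. Red points were called higher, blue points lower and grey points not. Dlk1 is the member farthest from 0 in knockout bulbs, at -2.37, and the other members lie between -0.54 and 0.47 there.

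The chromosome 12 cluster held the strongest change of any member. That change, the fall of Dlk1 in knockout bulbs, was known when the members were chosen. Dlk1, a membrane protein related to Notch ligands and known as preadipocyte factor, is read by a probe at chr12:110698721-110698781 in the build mm9 that the array design uses. Its levels on arrays 1 to 5 were -2.84, -3.45, -3.22, -3.07 and -2.91 in knockout bulbs. They were -1.60, -1.18, -1.98, -1.46 and -1.63 in active CRHR1 bulbs, against -0.77, -1.18, -0.61, -0.61 and -0.48 in Cre GFP bulbs. Every knockout array lay below every other array, and active CRHR1 and Cre GFP bulbs met at -1.18. Dlk1 fell by 2.37 ± 0.16 in knockout bulbs (SE; adjusted p = 3.66e-06, limma), which is 5.16-fold lower. In active CRHR1 bulbs it fell by 0.84 ± 0.16 (adjusted p = 0.00507), which is 1.79-fold lower. Active CRHR1 bulbs were 2.88-fold higher than knockout bulbs (adjusted p = 8.91e-05). Both groups therefore lay below Cre GFP bulbs, and the distance was greater in the knockout.

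The fall of Dlk1 in knockout bulbs passed without any single array and under every other setting tried. Within slide 1 it was -2.24 (adjusted p = 0.00187). Within slide 2, with 2 Cre GFP arrays, the active CRHR1 difference was -1.02 (adjusted p = 0.0538). A dimmer Dlk1 probe read -5.50, -6.01, -6.44, -5.77 and -5.54 in knockout bulbs, -4.82, -4.54, -4.70, -4.07 and -4.38 in active CRHR1 bulbs and -3.42, -4.48, -3.17, -3.77 and -3.85 in Cre GFP bulbs. It was not well above background on any knockout array, so knockout bulbs were at least 3.82-fold lower than Cre GFP bulbs there (adjusted p over probes = 0.000323), with measured means of -5.85 and -3.74. That probe passed the filter only through the other groups, so its p adds no support to the fall. The bound sets the mean of the brighter group against the lowest signal well above background on each dim array. Where the measured signal of the probe was higher than that, the measured signal was used. This was so for knockout arrays 1 and 5, whose lowest such signals were -5.81 and -5.73, so the bound is approximate. In RNA of whole bulbs, fewer cells that express a gene and less of its RNA per cell cannot be told apart.

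Meg3, a maternally expressed non-coding RNA that starts the long transcription between Dlk1 and Dio3, showed another pattern. Its levels were 5.85, 5.98, 5.93, 5.29 and 4.90 in knockout bulbs, 6.40, 6.55, 6.35, 6.19 and 6.47 in active CRHR1 bulbs and 6.74, 5.78, 6.24, 6.41 and 5.53 in Cre GFP bulbs. Knockout and active CRHR1 arrays did not overlap, while the Cre GFP arrays spanned the whole active CRHR1 range and lay above knockout arrays 4 and 5. Neither difference from Cre GFP passed, with -0.54 ± 0.24 for knockout (adjusted p = 0.207) and 0.26 ± 0.24 for active CRHR1 (adjusted p = 0.494). Active CRHR1 bulbs were 0.80 ± 0.24 higher than knockout bulbs (adjusted p = 0.0251), a call lost without any 1 of 5 arrays (knockout 4 or 5, active CRHR1 1, 2 or 5). This call was also lost with slide as a fixed block.

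Mirg, a non-coding RNA at the far end of the same transcription that hosts microRNAs, had a like pattern. It read 2.90, 2.88, 2.90, 2.17 and 1.91 in knockout bulbs, 3.57, 3.67, 3.51, 3.33 and 3.72 in active CRHR1 bulbs and 3.69, 2.63, 3.29, 3.50 and 2.12 in Cre GFP bulbs. Arrays 4 and 5 were the lowest of the knockout arrays for both genes, and arrays 2 and 5 the lowest of the Cre GFP arrays. The active CRHR1 arrays lay close together, with an SD of 0.14 for Meg3 and 0.15 for Mirg. The SD was 0.48 for each gene in knockout bulbs, and 0.49 for Meg3 and 0.65 for Mirg in Cre GFP bulbs. Active CRHR1 bulbs were 1.01 ± 0.28 higher than knockout bulbs for Mirg (adjusted p = 0.0192), which was lost without knockout array 4 (adjusted p = 0.0507). That call was lost with slide as a fixed block as well. The difference from Cre GFP was -0.49 (adjusted p = 0.339) for knockout and 0.52 (adjusted p = 0.233) for active CRHR1. Of the 3 Mirg probes, the third differed in direction for knockout, at 0.53.

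**Figure D2:**
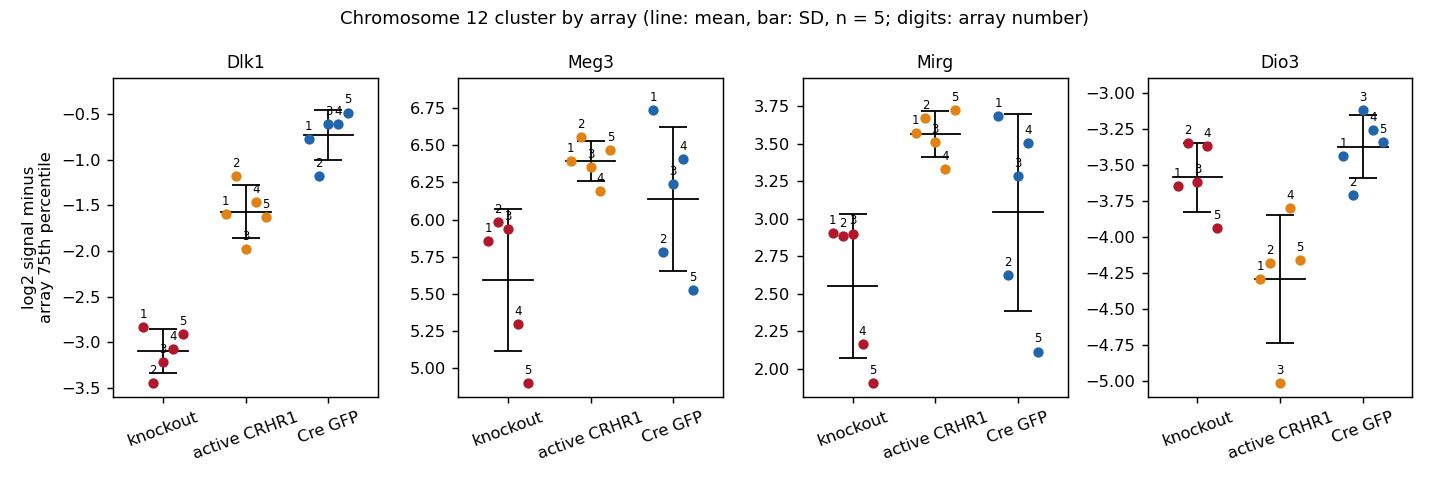
Log2 level on each array, as points, with the group mean as a line and a bar of 1 SD (n = 5), for Dlk1, Meg3, Mirg and Dio3 in knockout, active CRHR1 and Cre GFP bulbs. The knockout points of Dlk1 lie below all others, the active CRHR1 points of Meg3 and Mirg lie above all knockout points, and the active CRHR1 points of Dio3 lie below all Cre GFP points.

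The array holds many more probes along this transcription, most labelled only by a region and given no gene name here. In all, 119 probes lay over the 820 kb from Dlk1 to Dio3 and 71 passed the filter, 56 of them labelled by region. Between the Meg3 and Mirg probes, 84.0 to 289 kb from the Dlk1 probe, 62 probes passed. Knockout bulbs had the lower mean at 57 of these 62 probes, with a median change of -0.54 and 0 calls when probes were fitted one by one (limma; 13 at an unadjusted p under 0.05, and 3.37% of all kept probes called). Active CRHR1 bulbs had the higher mean at 60, with a median of 0.52 and 0 calls against Cre GFP (limma; 4 unadjusted, and 8.47% of all probes called). Active CRHR1 was above knockout at 60 probes, with a median of 0.98 and 39 calls, beside 25.6% of all probes called. By strand, 34 of the 46 probes on the + strand, that of Meg3 and Mirg, were called in this comparison, and 5 of the 16 on the - strand, whose share lies near that of all probes. Probes of 1 strand may read the same transcript and are not independent. No slide held both active CRHR1 and knockout arrays, and the fits of single probes had no term for slide. Knockout array 5 was the lowest knockout array at 50 of the 62, and Cre GFP array 5 the lowest Cre GFP array at 52.

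**Figure D3:**
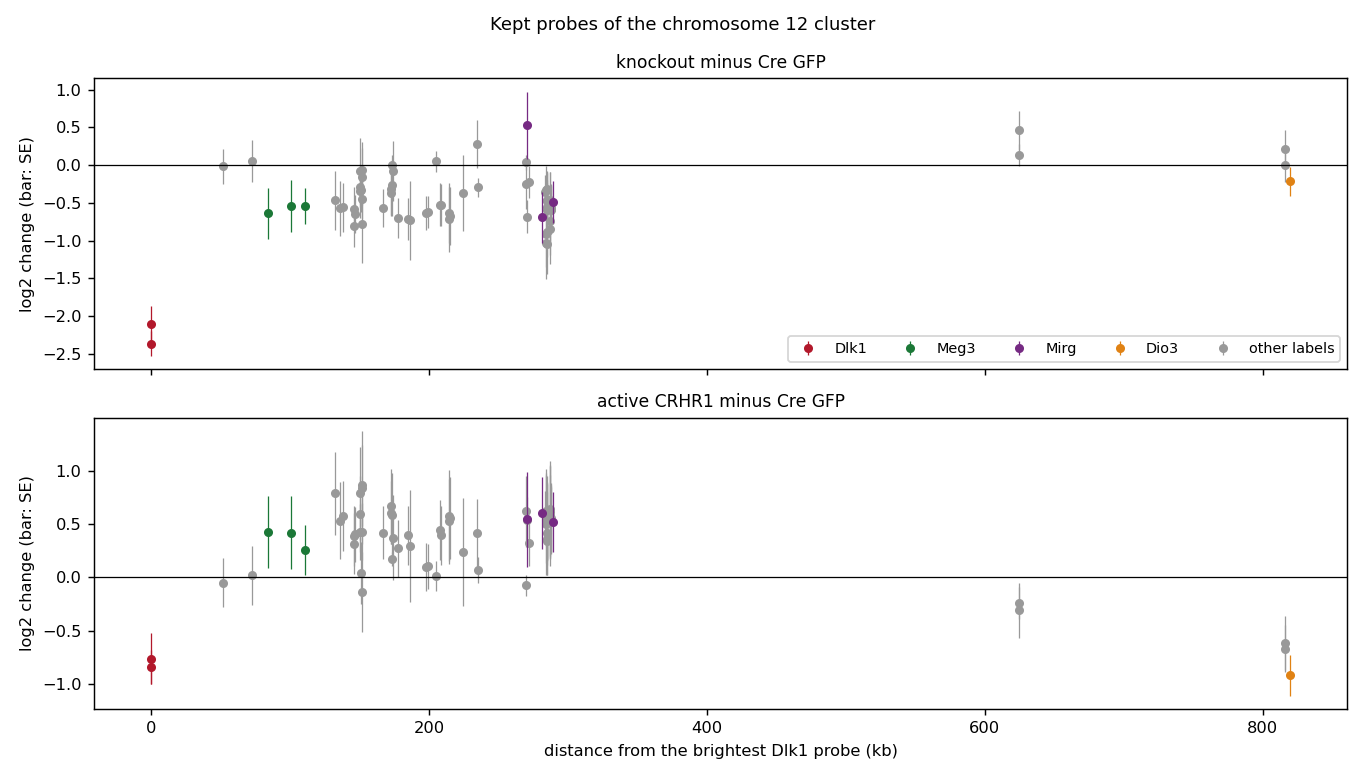
Log2 change from Cre GFP bulbs for the kept probes of the chromosome 12 cluster, in knockout and active CRHR1 bulbs, against distance from the Dlk1 probe in kb, with bars of 1 SE. The probes between 84.0 and 289 kb lie mostly below 0 for knockout and mostly above 0 for active CRHR1, while the Dlk1 probes lie below 0 in both.

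At the other end of the cluster, Dio3, the enzyme that inactivates thyroid hormone, was lower in active CRHR1 bulbs. Its levels were -3.65, -3.35, -3.62, -3.37 and -3.93 in knockout bulbs, -4.29, -4.18, -5.01, -3.80 and -4.16 in active CRHR1 bulbs and -3.44, -3.71, -3.12, -3.26 and -3.34 in Cre GFP bulbs. Every active CRHR1 array lay below every Cre GFP array. Dio3 fell by 0.92 ± 0.19 there (adjusted p = 0.00798, 1.89-fold lower), with -0.99 within slide 2 (adjusted p = 0.0992). The knockout difference was -0.21 ± 0.19 (adjusted p = 0.555). Both probes of Dio3os, the transcript antisense to Dio3, lie at the same position and are not separate readings of it. They gave -0.67 and -0.62 in active CRHR1 bulbs (limma, adjusted p over probes 0.0741 and 0.134). Rtl1, a retrotransposon-derived gene of placenta and muscle, did not pass the filter and was well above background on 1 knockout array only.

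Genes on both sides of the cluster, outside the members, were read from a list of 24, of which 23 were tested. In knockout bulbs 0 of the 23 passed (limma; 1 at an unadjusted p under 0.05), beside 4.09% of all genes. Active CRHR1 bulbs had 5 lower, where 6.24% of all genes were. These changed by -0.31 to -0.25 and were Slc25a47, Cinp, Hsp90aa1, Bcl11b and Slc25a29.

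Of the other paternally expressed genes, Plagl1, a zinc finger transcription factor on chromosome 10 that restrains cell division, was lower in knockout bulbs. It read 3.03, 2.84, 2.71, 2.71 and 2.51 in knockout bulbs, 2.99, 3.12, 2.99, 3.00 and 3.21 in active CRHR1 bulbs and 3.22, 3.18, 3.17, 3.15 and 3.05 in Cre GFP bulbs. Each knockout array lay below each Cre GFP array. Plagl1 fell by 0.39 ± 0.08 (adjusted p = 0.0196, limma), and its 4 probes ranged from -0.74 to -0.19. Within slide 1 the change was -0.43 (adjusted p = 0.174), and without knockout array 4 it was -0.38 (adjusted p = 0.0525). The active CRHR1 difference was -0.09 (adjusted p = 0.488).

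The Snrpn to Ube3a cluster of chromosome 7, the mouse counterpart of the Prader-Willi and Angelman region, had 6 members tested. All 6 had a lower mean than Cre GFP in both groups, with a median of -0.13 in knockout bulbs and -0.18 in active CRHR1 bulbs. Over all genes 48.7% had a lower mean in knockout bulbs and 64.5% in active CRHR1 bulbs. In knockout bulbs 0 of the 6 passed (limma; 1 at an unadjusted p under 0.05, Magel2 at -0.28). Ndn and Snrpn passed in active CRHR1 bulbs, 2 of 6 beside 10.8% of all genes. Ndn, a neuronal growth suppressor, read 3.79, 3.63, 3.68, 3.66 and 3.79 in knockout bulbs, 3.40, 3.51, 3.46, 3.54 and 3.46 in active CRHR1 bulbs and 3.66, 3.78, 3.91, 3.80 and 3.95 in Cre GFP bulbs. It fell by 0.35 ± 0.06 in active CRHR1 bulbs (adjusted p = 0.0035), whose arrays lay below all others. Within slide 2 the change was -0.40 (adjusted p = 0.0538).

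Snrpn, a splicing protein of neurons, read 5.31, 5.18, 4.97, 5.12 and 5.25 in knockout bulbs, 4.78, 4.86, 4.99, 4.95 and 4.89 in active CRHR1 bulbs and 5.15, 5.16, 5.18, 5.16 and 5.21 in Cre GFP bulbs. It fell by 0.28 ± 0.06 in active CRHR1 bulbs (adjusted p = 0.0154), below every Cre GFP array, with -0.29 within slide 2 (adjusted p = 0.0879). Mkrn3, a putative ubiquitin ligase, Peg12 and the maternally expressed ubiquitin ligase Ube3a gave -0.16, -0.20 and -0.06 in knockout bulbs and -0.19, -0.09 and -0.05 in active CRHR1 bulbs, and none passed.

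In the Peg3 cluster of chromosome 7, Usp29, a ubiquitin protease, read 2.52, 2.62, 2.57, 2.70 and 2.75 in knockout bulbs, 2.49, 2.67, 2.46, 2.58 and 2.29 in active CRHR1 bulbs and 2.53, 2.78, 2.90, 2.89 and 2.98 in Cre GFP bulbs. It fell by 0.32 ± 0.09 in active CRHR1 bulbs (adjusted p = 0.0387), where Cre GFP array 1 lay within the active CRHR1 range. The call was lost without any 1 of 10 arrays, with adjusted p up to 0.104, and the change within slide 2 was -0.44 (adjusted p = 0.0793). Those 10 were knockout arrays 2 and 4, active CRHR1 arrays 1, 3, 4 and 5, and Cre GFP arrays 2 to 5. Peg3, a zinc finger protein that shares its start region with Usp29, differed by -0.08 in knockout bulbs and 0.04 in active CRHR1 bulbs.

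Some neuronal markers were also lower in active CRHR1 bulbs, where 6.24% of all genes were. Of 9 pan-neuronal markers 5 fell. Summed, in units of the array's 75th percentile, they read 342 to 406 in active CRHR1 bulbs. The sums were 395 to 470 in knockout bulbs and 422 to 476 in Cre GFP bulbs. Of 8 granule cell markers 3 fell, with sums of 313 to 369 in active CRHR1 bulbs. Their sums were 345 to 404 in knockout bulbs and 369 to 427 in Cre GFP bulbs. None of these pan-neuronal and granule cell markers was at background. Of 5 mitral and tufted cell markers tested 0 passed (limma; 1 at an unadjusted p under 0.05). Lower markers were not limited to neurons, as 2 of 6 oligodendrocyte markers also fell and 0 rose. The part of neuronal markers in the falls of Ndn, Snrpn and Usp29 was not tested.

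Mest, an enzyme of the hydrolase fold linked to fat and growth, read 0.96, 0.77, 1.00, 0.99 and 1.29 in active CRHR1 bulbs, 1.22, 1.38, 1.56, 1.46 and 1.71 in knockout bulbs and 0.85, 0.96, 1.43, 1.47 and 1.50 in Cre GFP bulbs. It passed only between active CRHR1 and knockout bulbs, at -0.47 ± 0.14 (adjusted p = 0.0283), where the groups overlapped. That call was lost without any 1 of 4 arrays (knockout 4 or 5, active CRHR1 1 or 2).

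Among maternally expressed members, Cdkn1c, an inhibitor of cyclin-dependent kinases on distal chromosome 7, was higher in knockout bulbs. Its levels were 0.29, 0.34, 0.38, 0.20 and 0.16 in knockout bulbs, -0.35, -0.19, -0.17, -0.38 and -0.14 in active CRHR1 bulbs and -0.01, 0.11, -0.05, -0.23 and -0.11 in Cre GFP bulbs. Every knockout array lay above every other array. Cdkn1c rose by 0.33 ± 0.08 (adjusted p = 0.0253, limma), which is 1.26-fold. Within slide 1 the change was 0.26 (adjusted p = 0.262), and the call was lost without any 1 of 5 arrays (knockout 2 or 3, Cre GFP 3, 4 or 5), with adjusted p from 0.0504 to 0.0635. The active CRHR1 difference from Cre GFP was -0.19 (adjusted p = 0.119), and that from knockout was -0.52 (adjusted p = 0.000589).

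Dcn, the matrix proteoglycan decorin of fibroblasts, which is imprinted in the placenta, read 5.02, 4.89, 5.01, 4.84 and 4.78 in knockout bulbs, 4.20, 3.87, 4.43, 4.23 and 4.09 in active CRHR1 bulbs and 4.00, 4.60, 4.46, 4.48 and 4.64 in Cre GFP bulbs. All knockout arrays lay above all others. It rose by 0.47 ± 0.12 in knockout bulbs (adjusted p = 0.0471), a call lost without any 1 of 11 arrays, with adjusted p up to 0.0917. Those 11 were all 5 knockout arrays, active CRHR1 arrays 1, 4 and 5, and Cre GFP arrays 1, 3 and 4. Within slide 1 it was 0.55 (adjusted p = 0.153). Of 11 fibroblast markers 3 were also higher in knockout bulbs (Lum, Col3a1 and Slc13a3), beside 2.4% of all genes. Their sums were 58.7 to 91.5 in knockout bulbs, against 42.2 to 62.7 in Cre GFP bulbs. Of 8 mural cell markers 5 were higher, beside the same 2.4%. Their sums were 53.1 to 64.6 in knockout bulbs, against 39.7 to 46.5 in Cre GFP bulbs. Their part in the rise of Dcn was not tested.

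Tspan32, a tetraspanin of blood cells on distal chromosome 7, was higher in active CRHR1 bulbs. It read -3.30, -2.94, -2.83, -2.94 and -2.98 in knockout bulbs, -2.07, -3.15, -2.20, -1.83 and -1.96 in active CRHR1 bulbs and -3.17, -2.85, -3.31, -3.35 and -3.16 in Cre GFP bulbs. Active CRHR1 array 2 lay among the Cre GFP arrays and the other 4 above them all. Tspan32 rose by 0.93 ± 0.20 (adjusted p = 0.0107), with 1.11 from its second probe and 1.01 within slide 2 (adjusted p = 0.12). Of 12 microglia markers 8 were also higher, beside 4.54% of all genes. Their sums were 191 to 233 in active CRHR1 bulbs, against 130.2 to 165 in Cre GFP bulbs. Active CRHR1 array 2 thus lay above all Cre GFP arrays for these sums, unlike for Tspan32. Of 7 lymphocyte markers tested 4 were higher, beside the same 4.54%. Their sums were 2.25 to 6.40 in active CRHR1 bulbs, against 2.03 to 2.69 in Cre GFP bulbs. The T cell markers Cd8a, Cd8b1 and Trac did not pass the filter. Both kinds of marker were only set beside Tspan32. The part of microglia and lymphocytes in the rise of Tspan32 was not tested.

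In the Peg10 cluster of chromosome 6, Asb4, a subunit that guides ubiquitin ligases, read -4.23, -4.01, -3.80, -4.26 and -3.68 in knockout bulbs, -2.56, -3.34, -2.76, -3.04 and -2.94 in active CRHR1 bulbs and -3.85, -3.69, -3.81, -3.48 and -3.34 in Cre GFP bulbs. It rose by 0.71 ± 0.16 in active CRHR1 bulbs (adjusted p = 0.0114, 1.63-fold higher), with 0.48 within slide 2 (adjusted p = 0.165). Active CRHR1 bulbs were 2.10-fold higher than knockout bulbs (adjusted p = 0.000602). Ppp1r9a, the actin-binding protein neurabin, passed only between active CRHR1 and knockout bulbs, at -0.38 (adjusted p = 0.0152). Sgce, a sarcoglycan, differed by -0.12 in active CRHR1 bulbs and did not pass in either group. Peg10, a retrotransposon-derived gene, was well above background on 1 Cre GFP array, and Calcr, the calcitonin receptor, on 0 arrays, so neither was tested.

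H19, the maternally expressed growth-restraining RNA of distal chromosome 7, read -0.63, -1.22, -1.39, -1.12 and -1.22 in active CRHR1 bulbs, -1.28, -2.05, -1.63, -1.88 and -1.54 in knockout bulbs and -1.20, -1.74, -1.22, -1.29 and -1.13 in Cre GFP bulbs. It passed between active CRHR1 and knockout bulbs, at 0.56 ± 0.17 (adjusted p = 0.0251), where the groups overlapped and the call was lost without any 1 of 3 arrays (knockout 2 or 4, active CRHR1 1). The difference of knockout from Cre GFP was -0.36 for its brightest probe (adjusted p = 0.236) and lay between -0.34 and -0.21 for 4 others. A sixth probe gave -0.52, and was well above background on 2 knockout, 5 active CRHR1 and 4 Cre GFP arrays. Of the rest of that chromosome 7 cluster, the transporter Slc22a18, the transcription factor Ascl2 and the tetraspanin Cd81 lay between -0.13 and 0.24 in both groups and did not pass. Phlda2, a placental growth restrainer, was well above background on 0 arrays.

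**Figure D4:**
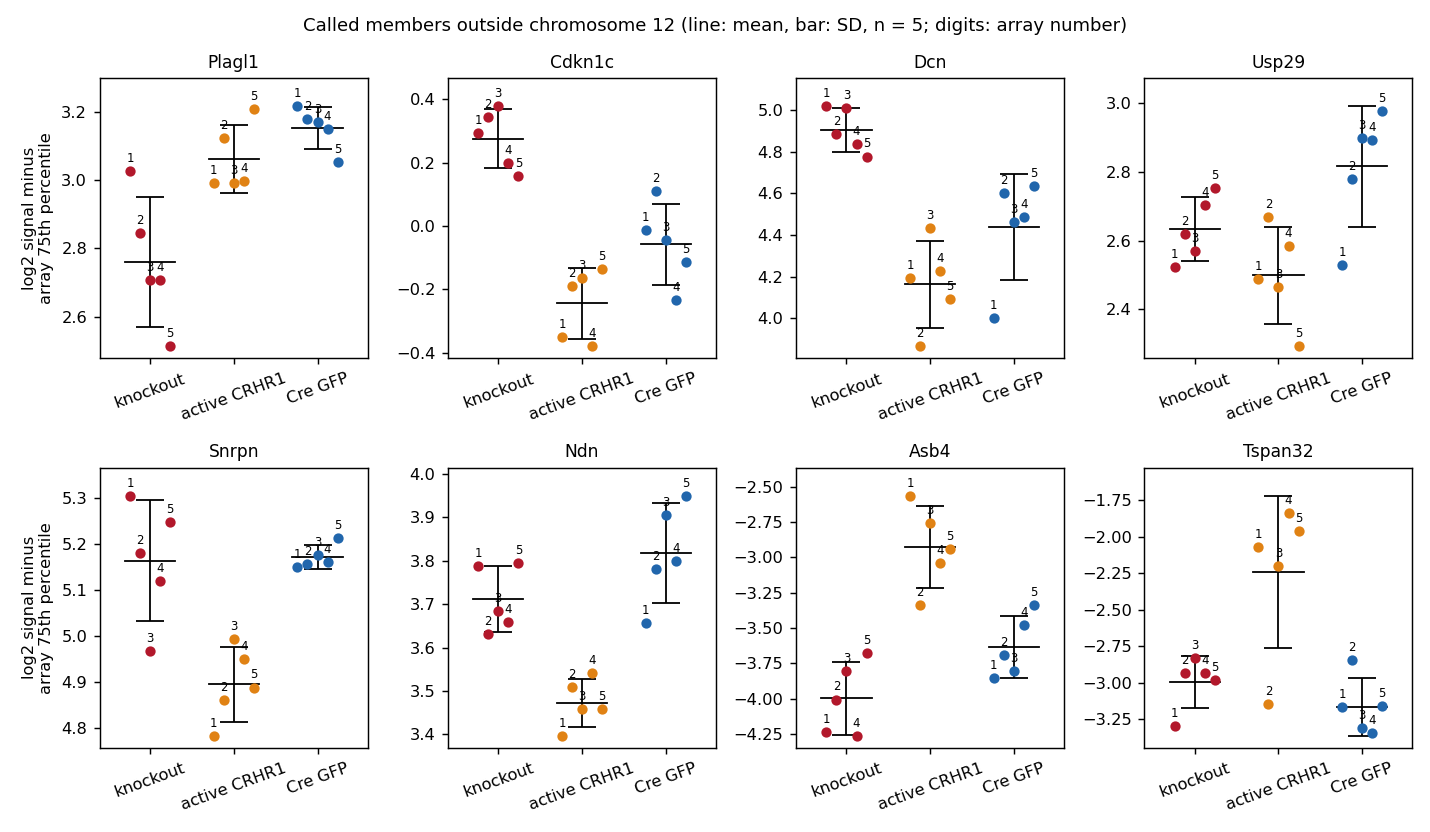
Log2 level on each array, as points, with the group mean as a line and a bar of 1 SD (n = 5), for the members outside chromosome 12 called against Cre GFP, in knockout, active CRHR1 and Cre GFP bulbs. Knockout points of Cdkn1c and Dcn lie above all others, and active CRHR1 array 2 of Tspan32 lies at -3.15 among the Cre GFP points.

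Nnat, the neuronatin of the endoplasmic reticulum, and Blcap, which encloses it on chromosome 2, did not pass by their brightest probes. Nnat read 4.29, 4.51, 4.10, 4.33 and 2.81 in knockout bulbs, 3.49, 3.22, 3.64, 3.51 and 3.67 in active CRHR1 bulbs and 3.88, 3.84, 3.85, 3.75 and 3.28 in Cre GFP bulbs. Knockout array 5 was the lowest of all 15, and the other knockout arrays were above all others. Its second probe likewise read 3.28 on knockout array 5, against 3.89 to 4.30 on the other knockout arrays. Blcap read 1.65, 1.53, 1.32, 1.66 and 2.60 in knockout bulbs, with array 5 now the highest, against 1.23 to 1.47 in active CRHR1 bulbs and 1.40 to 1.61 in Cre GFP bulbs. The knockout difference of Nnat was 0.29 ± 0.26 (adjusted p = 0.553) with all arrays, 0.15 within slide 1, and 0.59 (adjusted p = 0.031) without knockout array 5. The active CRHR1 difference of Nnat from knockout was -0.50 (adjusted p = 0.148), and -0.80 (adjusted p = 0.00191) without that array. The second Nnat probe gave -0.65 for this difference with all arrays (adjusted p over probes = 0.0142).

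**Figure D5:**
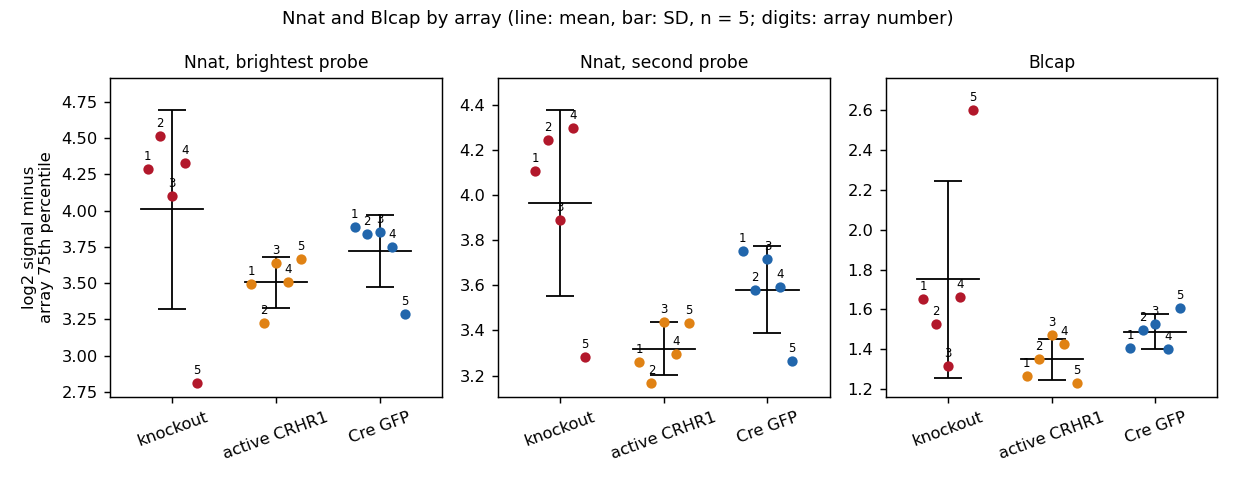
Log2 level on each array, as points, with the group mean as a line and a bar of 1 SD (n = 5), for the probes of Nnat and Blcap in knockout, active CRHR1 and Cre GFP bulbs. Knockout array 5 is low for Nnat, at 2.81, and high for Blcap, at 2.60.

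The other single loci gave no call. Zdbf2, a zinc finger gene of chromosome 1, differed by 0.41 in knockout bulbs (adjusted p = 0.245) and -0.11 in active CRHR1 bulbs. Grb10, an adaptor of the insulin receptor, Impact, a regulator of translation, Inpp5f, an inositol phosphatase, Rasgrf1, a Ras exchange factor, Nap1l5 and the splicing factor gene Zrsr1 lay between -0.13 and 0.16 in knockout bulbs and between -0.18 and 0.04 in active CRHR1 bulbs. The groups of active CRHR1 and Cre GFP did not overlap for Zrsr1 and Nap1l5, whose adjusted p were 0.064 and 0.098. On the other side of the threshold stood Usp29 at 0.0387 and Snrpn at 0.0154. In the knockout the nearest member on each side of the threshold was Dcn at 0.0471 and Asb4 at 0.201.

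The arrays do not tell parental alleles apart, so members were only counted by the copy assigned to each beforehand. That assignment need not hold in the adult bulb, as for Dcn, which is imprinted in the placenta. Of 19 paternally expressed members tested, 15 (78.9%) had a lower mean in knockout than in Cre GFP bulbs and 2 fell, while 48.7% of all genes had a lower mean. Of the same 19, 18 (94.7%) had a lower mean in active CRHR1 bulbs and 5 fell, while 64.5% of all genes had a lower mean. Of 13 maternally expressed members, 8 had a lower mean in knockout bulbs and 5 in active CRHR1 bulbs, and both calls in each group were rises. Members of 1 cluster share their control and are not independent, and the difference between the classes was not tested.

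A further list of 45 imprinted genes outside the members had 38 tested. In knockout bulbs 1 rose, Kcnq1, a potassium channel of the distal chromosome 7 cluster, by 0.73 ± 0.15 (adjusted p = 0.017), where 2.4% of all genes were higher. In active CRHR1 bulbs 1 rose and 6 fell, beside 4.54% of all genes higher and 6.24% lower. Pon3, a lactonase beside Asb4 and Ppp1r9a on chromosome 6, rose by 0.98 ± 0.13 (adjusted p = 0.000353). The falls lay between -0.32 and -0.19 and included Mcts2 (-0.31), Nap1l4 (-0.22), Ddc, the decarboxylase that makes dopamine (-0.32), Gnas, the stimulatory G protein through which CRHR1 acts (-0.19), and Commd1 (-0.25).

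Because Dlk1 is related to Notch ligands, 24 genes of a Notch list of 25 were read beside it. In knockout bulbs 4 rose and 0 fell (7 at an unadjusted p under 0.05, limma), beside 2.4% of all genes higher and 1.69% lower. These were the receptor Notch3 (0.52), the ligand Jag1 (0.68), the target Hes5 (0.38) and the glycosyltransferase Mfng (0.33). In active CRHR1 bulbs Notch3 rose by 0.41, and the receptor Notch4 (-0.30) and the glycosyltransferase Rfng (-0.19) fell, beside 4.54% of all genes higher and 6.24% lower. Notch3 is also a gene of mural cells, whose markers were higher in knockout bulbs, and the part of those cells was not tested.

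Probes of 1 member mostly moved the same way. Of the 16 members with several kept probes, all probes had the same sign in 13 for knockout, 13 for active CRHR1 and 14 for active CRHR1 against knockout. The probes of Mirg were the farthest apart in knockout bulbs, by 1.22, and those of H19 in active CRHR1 bulbs, by 0.41. For active CRHR1 against knockout those of Mirg were again the farthest apart, by 1.28.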

How the data were processed

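The scanner files hold a processed intensity per spot from Agilent Feature Extraction 10.7.3.1, per the file headers, with a deposited flag for spots well above background. The authors' series values are a signal that equals this intensity divided by the array's median, and were used as an alternative. Probe positions are in mm9, per the file headers. Each array of 59305 non-control spots was set to log2 intensity minus its 75th percentile. Outlier spots were dropped before repeated spots were averaged. Probes passed the filter when 4 or more of the 5 arrays in any group had them well above background, and the brightest such probe stood for its gene. No non-control spot was saturated. Region names shared by several probes count as 1 gene.

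The 3 comparisons were fitted on all 15 arrays with limma 3.58.1 in R 4.3.3 (lmFit, eBayes, with data.table version 1.17.8 for reading), and p-values were Benjamini-Hochberg adjusted over 23430 genes. Each group holds 5 separate mice, per the labels, and the number of arrays limits the precision. The fit was tested on simulated data. Sequences and figures used Python 3.11.15, pandas 2.3.3 and matplotlib 3.10.9. RefSeq supplied the promoters and symbols. Every member was named by rule; from the further lists at most 6 called genes per comparison. The members and lists were chosen with earlier results of these data known, among them the fall of Dlk1. Alternatives covered scaling, background correction, probe filter, probe choice, slide, replicate number, model, threshold and each array left out.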

Additional observations from a re-analysis of the deposited data

Results flagged for a closer look

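Of 99 sets of 5 arrays (33 members in 3 groups), 8 (8.08%) had an array whose gap to its nearest neighbour was over 0.71 of the group's range (Dixon's 95% critical value), where chance gives about 1 in 20. Of these 8, 3 were on knockout array 5, which read 2.81 for Nnat (next 4.10), 2.60 for Blcap (next 1.66) and 3.81 for Nap1l5 (next 3.58). Cre GFP array 5 was also low for Nnat, at 3.28 (next 3.75). Active CRHR1 array 2 read -3.15 for Tspan32 (next -2.20) and active CRHR1 array 1 read -1.04 for Ube3a (next -0.89). Cre GFP array 2 read -1.74 for H19 (next -1.29), and Cre GFP array 1 read 4.00 for Dcn (next 4.46). The cause was not tested for any of them.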

How the results depend on the processing

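No called member turned its direction under any setting tried. Of the 15 settings other than leaving out an array, the knockout call was lost in 0 for Dlk1, 3 for Plagl1, 7 for Cdkn1c and 9 for Dcn, and the active CRHR1 call in 1 each for Dlk1, Dio3 and Ndn, 3 for Tspan32, 6 each for Snrpn and Asb4 and 8 for Usp29. The 4 members called in knockout bulbs were 2 with median centring, with the authors' scaled values, with no filter on dim probes and with slide as a fixed block, and 1 within slide 1 (5 at an unadjusted p under 0.05), in a fit of only the 2 groups compared and at an adjusted p under 0.01. The 7 called in active CRHR1 bulbs were 4 with median centring, the authors' values and slide as a fixed block, 11 with array weights, 3 at an adjusted p under 0.01, and 0 within slide 2 (limma; 13 at an unadjusted p under 0.05, and 416 of all genes called). The 14 called between active CRHR1 and knockout were 8 with median centring and the authors' values, 3 with slide as a fixed block and 5 at an adjusted p under 0.01. With 1 array left out the counts ranged from 2 to 4, 6 to 9 and 10 to 16 in that order of comparisons; the knockout count was 2 without knockout array 2, 3 or 4 or Cre GFP array 3 or 4. The cause was not tested, except that the fits within a slide hold fewer arrays.

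The replicate numbers were not treated as pairs in the main fit. Deviations of same-numbered arrays correlated from -0.15 to 0.36 between knockout and Cre GFP, with the highest for the 2 arrays numbered 5. They correlated from -0.23 to 0.10 between active CRHR1 and Cre GFP and -0.07 to 0.20 between active CRHR1 and knockout. These values cannot settle whether mice were paired. With the replicate block 3, 6 and 14 members passed, and Dcn in knockout (adjusted p = 0.0903) and Usp29 in active CRHR1 bulbs (adjusted p = 0.0609) were lost. The knockout count of all genes was 958, against 387 with median centring, 449 with the authors' values, 545 with no filter, 443 with slide as a fixed block, 159 within slide 1, 569 with only the 2 groups, 1470 with quantile normalisation, 2074 with array weights and 230 at an adjusted p under 0.01. The active CRHR1 count was 2527, against 1345, 1312, 1581 and 1085 for the first 4 of these, 416 within slide 2, 5817 with array weights and 854 at 0.01. Active CRHR1 against knockout gave 6579, against 3641 with median centring, 3639 with the authors' values, 804 with slide as a fixed block and 2174 at 0.01. Median centring put the median change of all genes at -0.05, -0.17 and -0.12, against 0.01, -0.08 and -0.08. Dim probes, such as those of Asb4, Dio3, Zdbf2, Peg12, Magel2 and Tspan32, carry less signal over background than bright ones. The mean of Dlk1 in knockout bulbs, at -3.10, was also in this low range.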
